A study of Mus musculus with 2 samples.

Results

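The proteins that endothelial cells lay down beneath them and hold on to were followed in 40 genes: 10 laminin chains, 6 other matrix genes (Nid1, Nid2, Hspg2, Agrn, Fn1 and Sparc) and 24 integrin chains. Membership was set by gene symbol, as every laminin chain and every integrin alpha and beta chain that a probe set with 1 annotated gene measures, with the 6 matrix genes added by name, and are 40 of the 18193 genes measured. Itga11 and Itgad fit the symbols but were not analysed here. The samples were 2 pools of GFP-positive cells sorted from trypsin-dissociated kidneys of CD-1 mouse fetuses at E15.5 (Theiler stage 23), each pool from about 5 to 10 kidneys, and each was hybridised to 1 array after 2 rounds of amplification. All carried Tg(TIE2GFP)287Sato, in which the promoter of Tie2 (Tek), a receptor of endothelium that some blood cells also use, drives GFP. There was no other group, treatment or genotype. The labels disagree in part, since the titles name Flk1 (Kdr) and the source field names renal artery and vein, whereas the protocol describes whole kidneys.

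Laminins are secreted as trimers of an alpha, a beta and a gamma chain that polymerise into the sheet of the basement membrane. Nidogens and the proteoglycans perlecan and agrin tie that sheet to the collagen IV network, and integrins, each a pair of an alpha and a beta chain, anchor the cell to it and signal inward. Vascular basement membranes are known mainly for laminins with the alpha 4 or alpha 5 chain.

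Values are array intensities as deposited, with no physical unit and already scaled to a mean shared by the arrays. The level in replicate 1 always precedes that in replicate 2. A gene was called above background when its probe set exceeded, on both arrays, a limit set from sensory receptor genes, which was 198.9 on replicate 1 and 203.9 on replicate 2. Of 18193 genes, 11127 (61.2%) were above background. Levels of different genes come from different probes, so they were set against the limit and between the arrays but not against each other. The design, 1 group of 2 arrays, allows no contrast or test, and nothing in the labels says that the pools came from separate litters, so the spread between them may be technical. Of 10 endothelial markers all 10 were above background, among them Cdh5 (22435 and 20733), Pecam1 (1257 and 2247) and Tek (15908 and 21499). Markers of macrophages and renal stroma also passed (11 of 11 and 9 of 10), so the limit does not separate the labelled cell type from others.

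Of the 40 genes, 30 (75.0%) were above background, against 61.2% of all genes. The matrix genes reached 14 of 16, the integrin alpha chains 12 of 16 and the integrin beta chains 4 of 8. Of the other 10 genes, Itgax passed the limit on replicate 1 only, Itgb3 and Lamc3 on replicate 2 only, and Itga7, Itgae, Itgam, Itgb4, Itgb6, Itgb8 and Lamb3 on neither array. Since a limit was used and not a test, a gene below it was not detected at this sensitivity and cannot be called absent.

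**Figure D1:**
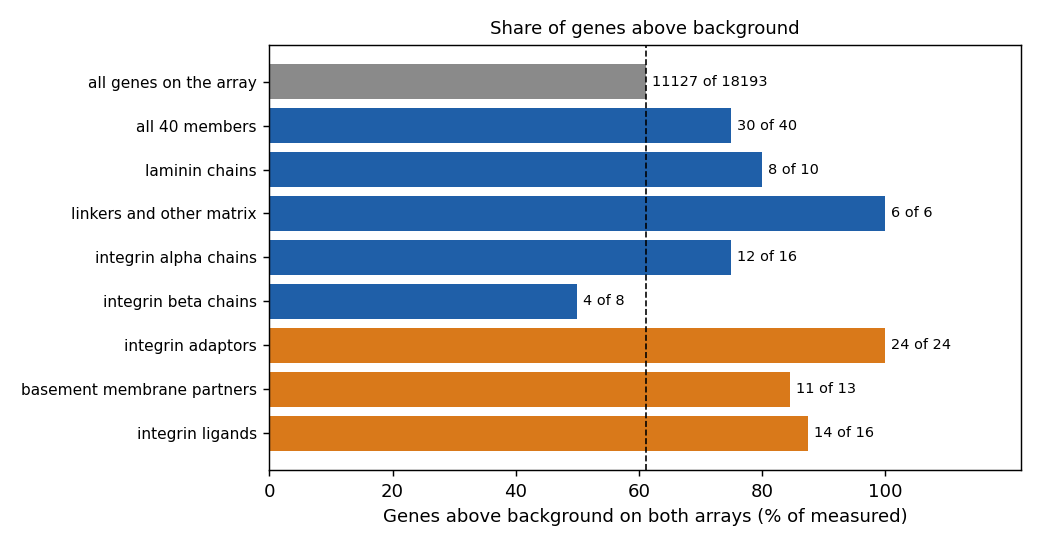
Share of genes, in percent, that passed the limit on replicate 1 and replicate 2 (x axis) for all genes (grey), the laminin, matrix and integrin genes (blue) and the lists of adaptors, partners and ligands (orange), with counts at the bar ends and the share of all genes dashed. The 6 linker and other matrix genes and the 24 adaptors all passed, and the beta chains reached 4 of 8.

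All 5 laminin alpha chains were above background. Lama4, the alpha chain of endothelial laminins, gave 29475 and 19930, and its other probe set gave 16222 and 16247. Lama5, found in vascular and many epithelial basement membranes, gave 498 and 477. The representing probe set of Lama4 was lower in replicate 2 and its other probe set gave nearly equal levels, as did the representing probe set of Lama5. Another Lama5 probe set above background was lower in replicate 2 (390 and 272), and a further one was below the limit (11.25 and 38.8). Lama1, the chain of early embryonic and tubular basement membranes, gave 677 and 491, and Lama3, known mainly from epithelia, gave 901 and 627. Lama2, the chain of muscle and mesenchymal basement membranes, stood out among the 5 with 301 and 758, higher in replicate 2.

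The beta and gamma chains were fewer. Lamb1, the most general beta chain, gave 33274 and 33791, and Lamb2, the beta chain of mature vessels and the glomerulus, gave 998 and 1182. Lamc1, the gamma chain of most laminins, gave 3737 and 5108. The representing probe sets of all 3 were within 1.5-fold between the pools. A weaker Lamb1 probe set differed by 1.57-fold (252 and 404). Lamb3, a chain of epithelial laminin, was below the limit (81.3 and 120), and Lamc3 lay at the limit itself (196 and 210.0), so its call turned on 1 array.

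Of 13 laminin trimers known from textbooks and measured in every chain, 10 had all 3 chains above background. These are the 5 alpha chains, each with Lamb1 or Lamb2 and with Lamc1, so the count restates the calls of 8 chains. Among the 10 were laminin 411 (Lama4, Lamb1 and Lamc1) and laminin 511 (Lama5, Lamb1 and Lamc1), the laminins known from vessels. In laminins 213, 423 and 523 the chain not above background was Lamc3. The count records transcripts of chains in a pool of cells, and no assembled laminin was measured.

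All 6 of the other matrix genes were above background. Nid1 and Nid2, the nidogens that bridge laminin and collagen IV, gave 12748 and 16907, and 8732 and 8533. Hspg2 (perlecan) gave 1702 and 1537, and Agrn (agrin) gave 19405 and 17621. The nidogens and proteoglycans thus lay well above the limit in both pools. Sparc, a collagen-binding glycoprotein of remodelling matrix, gave 29928 and 20371, and was higher in replicate 1. Fn1, the fibronectin of provisional and stromal matrix, gave 9627 and 16260, and was higher in replicate 2.

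**Figure D2:**
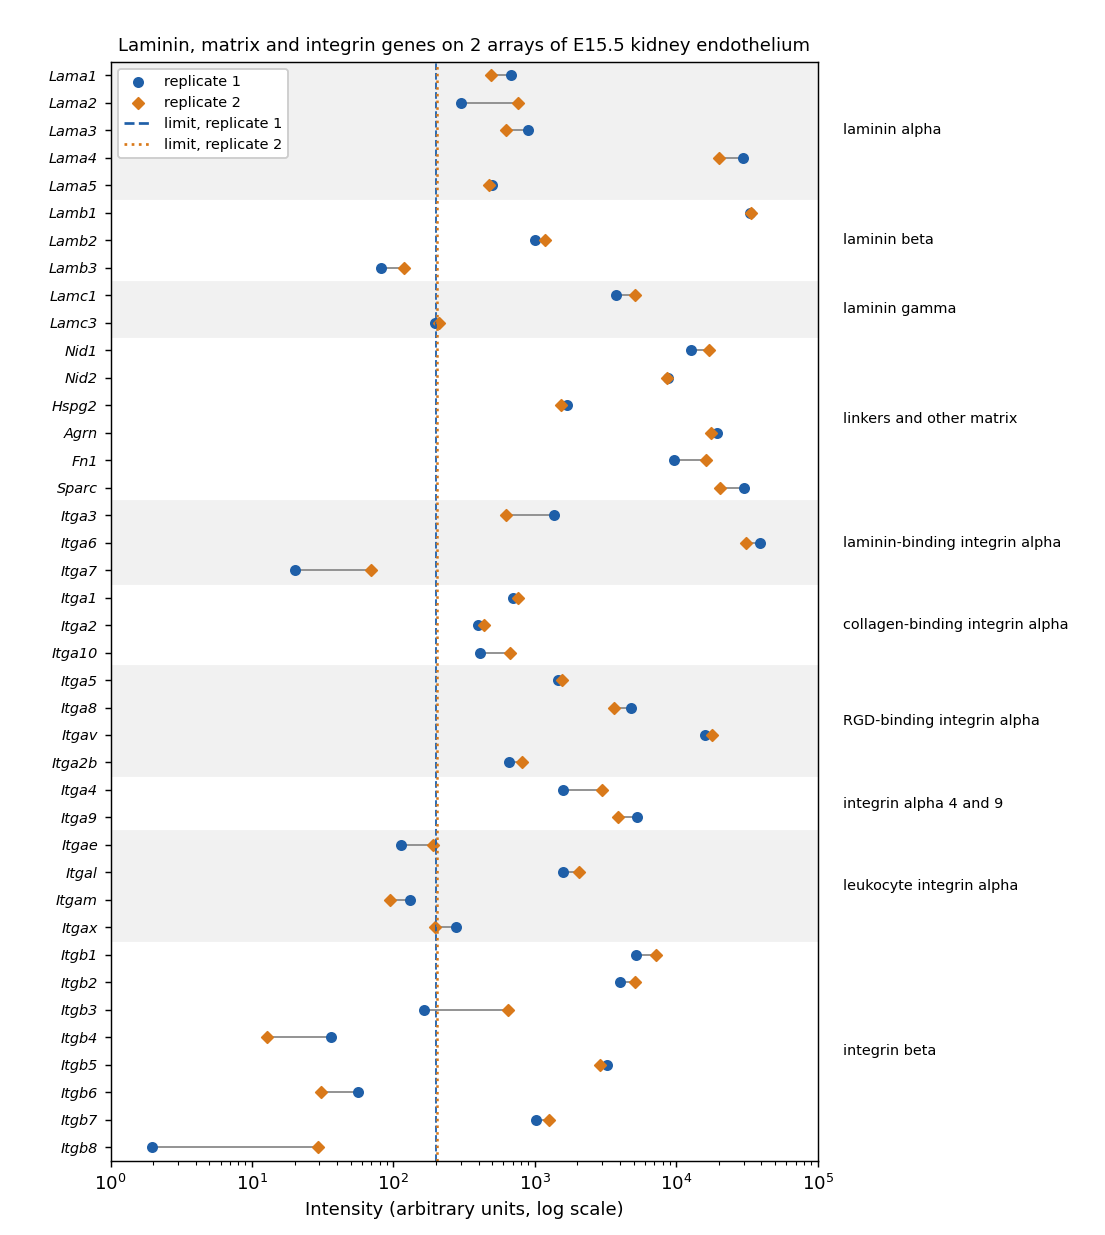
Intensity of the probe set that represents each gene (x axis, arbitrary units, log scale) in replicate 1 (circles) and replicate 2 (diamonds), by role, with the background limit of each array. Of 40 genes 30 lie right of both limits, the matrix genes Lamb3 and Lamc3 being the exceptions among 16, and positions should be read for 1 gene at a time, not between genes.

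Among the laminin-binding integrins, Itga6 gave 39112 and 31176, and Itga3, the partner of Itgb1 in podocytes and epithelia, gave 1358 and 626. Itga7, best known from muscle, was below the limit (20.1 and 69.5). Of these 3 chains, Itga6 was far above the limit in both pools and Itga3 was lower in replicate 2. The 3 collagen receptor chains measured were above background. Itga1 gave 702 and 762, Itga2 gave 395 and 437, and Itga10 gave 408 and 670.4.

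All 4 alpha chains that recognise the RGD sequence of fibronectin and related ligands were above background. Itgav, which pairs with 5 beta chains, gave 16049 and 17910.1, and Itga5, the main fibronectin receptor chain, gave 1459.9 and 1557. Itga8, a chain of kidney mesenchyme and mesangial cells needed for kidney outgrowth, gave 4817 and 3635. Itga2b, the alpha chain of the platelet fibrinogen receptor, gave 653 and 813. The other probe sets of Itga5 were not above background (267 and 153, 189.8 and 138, and 74.8 and 95.1), and its call was lost when each gene was represented by the median of its probe sets. The representing probe sets of these 4 genes were within 1.5-fold between the pools. Itga9, a chain of lymphatic valves and tenascin binding, gave 5275 and 3899.8. Itga4, which binds Vcam1 and fibronectin, gave 1573 and 2992.

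The leukocyte chains were represented unevenly. Itgal, the alpha chain of LFA-1, gave 1572 and 2068. Itgam (131 and 94.4) and Itgae (113 and 192) were below the limit, and Itgax lay near it (275 and 198). Only Itgal of these 4 was therefore above background on both arrays, although the beta chain it shares with Itgam and Itgax, Itgb2, gave 4027 and 5123.

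Of the beta chains, Itgb1, the partner of most alpha chains, gave 5161 and 7224, Itgb5, a partner of Itgav, gave 3249 and 2877, and Itgb7, a beta chain of lymphoid homing, gave 1014 and 1259. Itgb3, the partner of Itgav in sprouting vessels and of Itga2b in platelets, gave 164 and 642. Its second probe set was far below the limit on both arrays (18.3 and 18.7). The call of Itgb3 thus rested on 1 probe set and 1 array. The beta chains known from epithelia and neural tissue were below the limit on both arrays, with Itgb4 at 36.4 and 12.7, Itgb6 at 55.9 and 30.95, and Itgb8 at 1.95 and 29.2.

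Of 24 integrin pairs listed from textbooks, 22 had both chains measured, and 13 of these had both above background. The pairs of Itgb1 made up 10 of the 13, of 11 measured, Itga7 being the exception. These 10 pairs thus all rest on the call of 1 beta chain. The other 3 were Itgal with Itgb2, Itga4 with Itgb7 and Itgav with Itgb5. In the remaining 9 pairs 1 chain was above background, and in 0 pairs were both chains below it. Itga6 with Itgb4, the pair of epithelial hemidesmosomes, had Itga6 above background and Itgb4 not. These counts again join transcripts from a pool of cells, and whether the 2 chains of a pair came from the same cell was not tested.

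**Figure D3:**
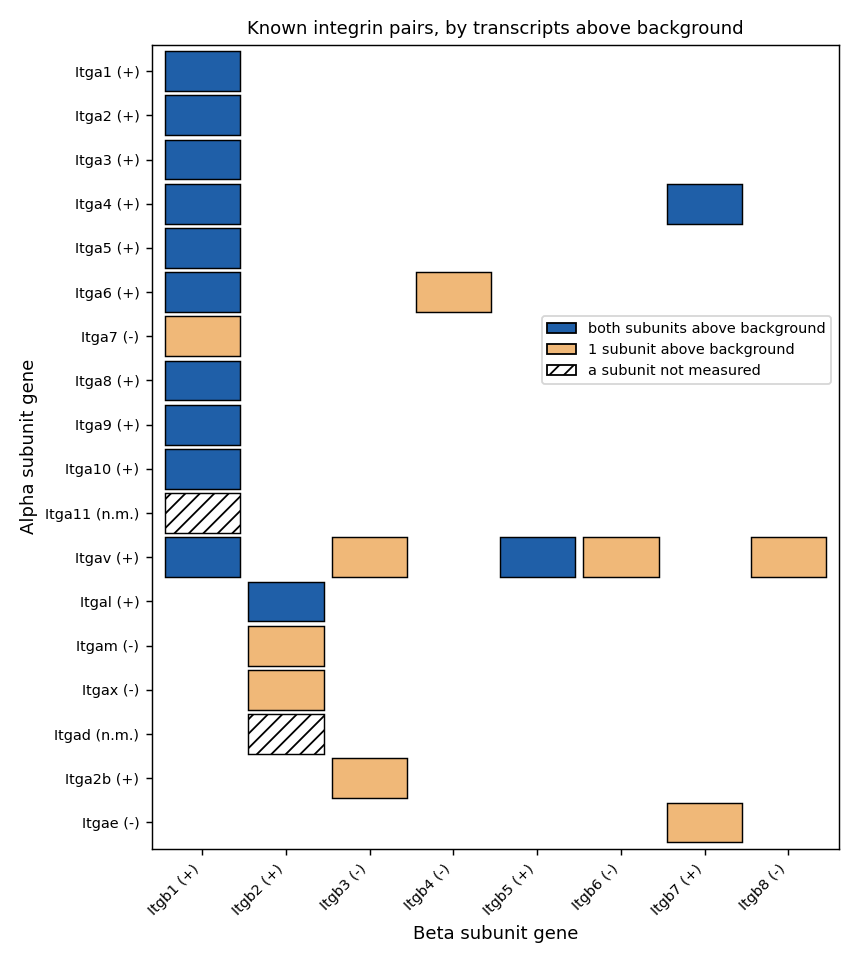
Known integrin pairs by alpha chain (y axis) and beta chain (x axis), filled by whether both chains, 1 chain or not all chains were measured above background, with the call of each gene beside its name (+ above, - not above, n.m. not measured). The column of Itgb1 holds 10 of the 13 filled pairs, and the pairs of Itgav with Itgb3, Itgb6 and Itgb8 have 1 chain above background.

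The sequences before 3 start sites are shown for the chain that serves most pairs, Itgb1, and for the genes that differed by over 2-fold between the pools, Itga3 and Lama2. Each is the 250 bases before a RefSeq start, read along the gene's strand in GRCm38.p6. CAGGAA is 1 form of a site for ETS factors, known regulators of endothelial genes, and is longer than their core GGAA. Capitals mark CAGGAA or its reverse complement TTCCTG, and GGGCGG, the GC box, or its reverse complement CCGCCC. The motifs share no bases where they occur here.
Itgb1, chr8:128685404-128685653, plus strand: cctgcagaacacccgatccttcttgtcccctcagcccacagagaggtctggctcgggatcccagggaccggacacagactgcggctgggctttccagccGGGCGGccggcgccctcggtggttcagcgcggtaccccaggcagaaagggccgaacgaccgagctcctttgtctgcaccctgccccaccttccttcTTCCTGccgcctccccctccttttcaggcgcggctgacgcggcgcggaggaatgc
Itga3, chr11:95076715-95076964, minus strand: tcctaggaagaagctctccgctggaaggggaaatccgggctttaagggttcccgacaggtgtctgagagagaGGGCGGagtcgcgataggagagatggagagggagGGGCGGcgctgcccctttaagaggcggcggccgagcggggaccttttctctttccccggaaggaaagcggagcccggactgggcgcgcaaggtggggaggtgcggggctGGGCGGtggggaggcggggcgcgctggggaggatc
Lama2, chr10:27616943-27617192, minus strand: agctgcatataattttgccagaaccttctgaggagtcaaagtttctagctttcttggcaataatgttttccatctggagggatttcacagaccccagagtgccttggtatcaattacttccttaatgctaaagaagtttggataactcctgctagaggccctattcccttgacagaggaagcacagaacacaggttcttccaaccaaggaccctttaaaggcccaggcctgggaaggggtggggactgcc
The Itgb1 window held 1 CAGGAA motif and 1 GC box, the Itga3 window shown held 3 GC boxes and no CAGGAA, and that of Lama2 held neither. The shorter GGAA core was not marked or counted, and it occurs in each window shown. RefSeq gives a second Itga3 start, whose window held 1 GC box and no CAGGAA motif. Sequences were found for 26 of the 40 genes, with 30 starts. Of these 30 windows, 10 (33.3%) held the CAGGAA motif, against 25.7% of all 32851 windows, and 13 (43.3%) held the GC box, against 32.7%. A match is a description of letters and not a site.

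The second question was how far the pools differed in these genes. Differences are log2 of replicate 1 minus replicate 2 after making the array medians equal. A difference of over 2-fold was found for 2 of the 30, against 4.82% of all 11127 genes above background. Of the 2, Itga3 was higher in replicate 1 (2.22-fold, 1.15 on the log2 scale), a direction that 2.22% of all genes took, and Lama2 was higher in replicate 2 (2.46-fold, -1.30), as were 2.60% of all genes. The share among these genes is near that of all genes. Spread depends on level, and among the 1000 genes closest in level to Itga3 and to Lama2, 7.70% and 10.9% differed by over 2-fold. The call of Itga3 rested on 1 of its 3 probe sets, since the others lay below the limit (50.4 and 23.9, and 110.2 and 23.8), and Itga3 was lost when each gene was represented by the median of its probe sets. Lama2 was lost with a limit at the 99th percentile or at 2 times the main limit.

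The median difference of the 30 genes was -0.075, against 0.039 over all genes above background, whose SD was 0.51. It became 0.014 with genes represented by the median over probe sets, so its sign was not settled. Of the 16 integrin chains above background, 11 were higher in replicate 2, and of the 14 matrix genes 9 were higher in replicate 1, while of all genes above background 5150 of 11127 were higher in replicate 2. The largest differences below 2-fold were those of Itga4 (-0.90), Fn1 (-0.72) and Itga10 (-0.68) toward replicate 2, and Lama4 (0.60), Sparc (0.59) and Lama3 (0.55) toward replicate 1. At the level of Lama4 and Sparc, 0.700% and 0.600% of the 1000 closest genes differed by over 2-fold, and at that of Itga10 10.7% did, so differences of one size were rarer in the former.

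Probe sets of 1 gene often disagreed. Of 25 genes with more than 1 probe set, 11 had some above background and some not, against 44.2% of 9010 such genes on the array. In 16 genes at least 2 probe sets were above background, and in 7 of the 16 their differences had opposite signs, against 52.0% of all such genes. Itgb1, with 3 of 6 probe sets above background, was higher in replicate 2 in all 3 (-0.45, -0.75 and -1.02), and Itga4 in all 3 of its own (-0.83 to -1.24). Itgb5 was higher in replicate 1 in all 4 (0.10 to 0.60). The probe sets of these 3 genes thus kept 1 direction. The 7 genes that turned with the probe set were Itgav (-0.70 to 0.64), Nid1 (-0.38 and 0.66), Lamc1 (-0.42 and 0.49), Itga9 (-0.46 to 0.47), Itga6 (0.36 and -0.23), Lamb1 (-0.65 to 0.01) and Itga8 (0.44 and -0.01), and their directions in the counts above are those of the representing probe set. Hspg2 had the widest span, at 0.18 and 1.74, its second probe set giving 2732 and 839, and the second probe set of Agrn gave a difference of 1.05.

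**Figure D4:**
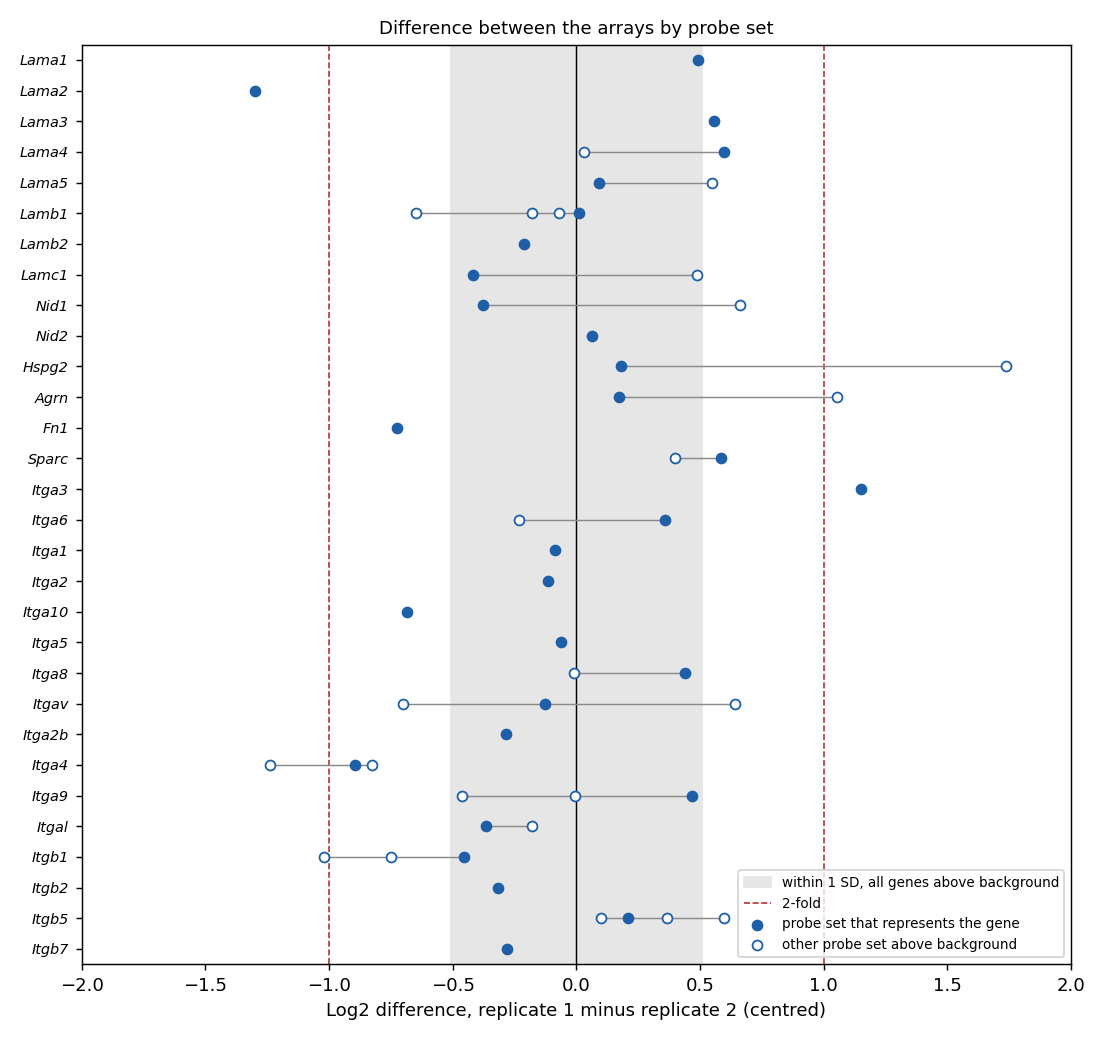
Log2 difference, replicate 1 minus replicate 2 (x axis), of every probe set above background of the 30 genes, filled where the probe set represents the gene, with 1 SD of all genes shaded and 2-fold dashed. Filled points pass 2-fold for Itga3 and Lama2 only, and lines that cross 0 mark 7 genes whose probe sets disagree in direction.

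Genes that work with the integrins were followed in lists. All 24 measured genes of the adaptor list, some of which join integrin tails to actin, were above background, against 61.2% of all genes. The talins Tln1 and Tln2 gave 6090.1 and 6906, and 2845 and 2288, and the kindlins Fermt2 and Fermt3, of which Fermt3 is the form of blood cells, gave 17758 and 24789.6, and 7991 and 6314. Their median difference was 0.077, and 0 of the 24 differed by over 2-fold, against 4.82% of all genes above background. A list this short cannot tell 0 from that share. Of 13 basement membrane partners 11 were above background, with dystroglycan (Dag1) at 6558 and 6580.0, Col4a1 at 43709 and 46199.8, and Col4a2 at 32728 and 26789. The laminin receptor Bcam was below the limit (136 and 151), and Smoc2 passed it on replicate 2 only (107 and 905). Their median difference was 0.17, and 0 of the 11 differed by over 2-fold, a list again too short to set against the share of all genes.

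Ligands of integrins other than laminin and collagen were mostly above background (14 of 16, against 61.2% of all genes). Vitronectin (Vtn) was below the limit (39.0 and 106), as was the fibrinogen chain Fgg (12.5 and 10.4). Nephronectin (Npnt), the ligand of Itga8 in the kidney, gave 1023 and 1106, Vcam1, a ligand of Itga4, gave 1604 and 2751, and tenascin C (Tnc) gave 377 and 546. The ligands for Itga4 and Itga8 were thus measured in the same pools as the receptors. Periostin (Postn), a ligand of stromal matrix, was the only ligand past 2-fold (2650.2 and 11252, a difference of -2.05), and the list median was -0.31.

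Markers of other cells were also measured, and in bulk RNA fewer cells of a type and less RNA per cell cannot be told apart. Of 10 renal stroma markers 9 were above background, all 9 over 2-fold higher in replicate 2, and the list sums were 24054 and 83522. Pdgfra gave 719.8 and 4811, Foxd1 gave 775 and 1775, and Tbx18 gave 282 and 1115, while Tcf21 passed the limit on replicate 2 only (186 and 352). Lama2 and Fn1 differed in the direction of this list, a direction taken by 16 of the 30 laminin, matrix and integrin genes above background. Sparc (0.59) and Itga8 (0.44), a chain of kidney mesenchyme, differed the other way. Mural markers reached 4 of 7, with a median of -0.61 and a sum of 6639.7 and 11360.3. Pdgfrb gave 2246 and 4253, Rgs5 1212 and 1838 and Cspg4 684 and 857, Tagln (98.8 and 334) and Myh11 (32.4 and 278) passed the limit on replicate 2 only, while Des was below it (77.5 and 106). The part of stromal and mural cells in the differences of Lama2 and Fn1 was not tested.

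Blood cell markers stood beside the leukocyte and platelet integrins. All 11 macrophage markers were above background, with a median of -0.22 and a sum of 101762 and 121726, among them Csf1r (34029.5 and 36806), Adgre1 (4305 and 7632) and Cd68 (2358 and 2218). The common leukocyte gene Ptprc gave 2846 and 6381. Of the 11 macrophage markers 8 were higher in replicate 2, and Tyrobp (0.34), C1qb (0.21) and Cd68 (0.12) were higher in replicate 1. The list median lay within the SD of 0.51 over all genes. Itgal, Itgb2, Itgb7 and Itga4 differed in the same direction as this median, by -0.36, -0.32, -0.28 and -0.90. That direction was taken by 11 of the 16 integrin chains above background. Itgax (0.51) and Itgam (0.50), which were not above background on both arrays, differed the other way. Of 5 platelet markers 3 were above background, with a sum of 14058 and 15373. Pf4 gave 13136 and 13626, Ppbp 451 and 1129, and Gp1bb 293 and 254, whereas Gp9 (19.6 and 86.8) was below the limit and Gp6 (159 and 276) passed it on replicate 2 only. Lymphocyte markers reached 1 of 4 (sums of 756 and 755), that being Cd79b (559.7 and 559), with Cd3e (11.7 and 14.8), Cd3d (22.3 and 45.2) and Cd79a (163 and 136) below the limit. The share of each leukocyte or platelet chain that came from blood cells was not tested.

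Markers of epithelium were detected in part. Tubule and ureteric bud markers reached 4 of 8 (sums of 2045 and 2387), with Wnt11 at 374 and 564, Cdh1 at 262 and 379, Krt8 at 426 and 418, and Gata3 at 378 and 416. Ret (203 and 163) and Epcam (181 and 282) passed on 1 array, and Lhx1 (108 and 13.6) and Pax8 (112 and 151) on neither. Nephron progenitor markers reached 1 of 4 (sums of 436 and 682), that being Six2 (269 and 229.5), with Cited1 (11.7 and 13.6) and Osr1 (30.6 and 121) below the limit and Eya1 (124 and 318) above it on replicate 2. Podocyte markers reached 2 of 4, with a median of -0.58 and sums of 31113 and 32852 that are mostly the intensity of Podxl. The 2 were Podxl, a gene shared with endothelium, at 29868 and 30059.6, and Synpo at 1012 and 2346, while Nphs1 (89.1 and 100.2) was below the limit and Wt1 (144 and 347) passed it on replicate 2. The part of these cells in the levels of Itga3, Lama1 and Lama3, which epithelia also use, was not tested.

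**Figure D5:**
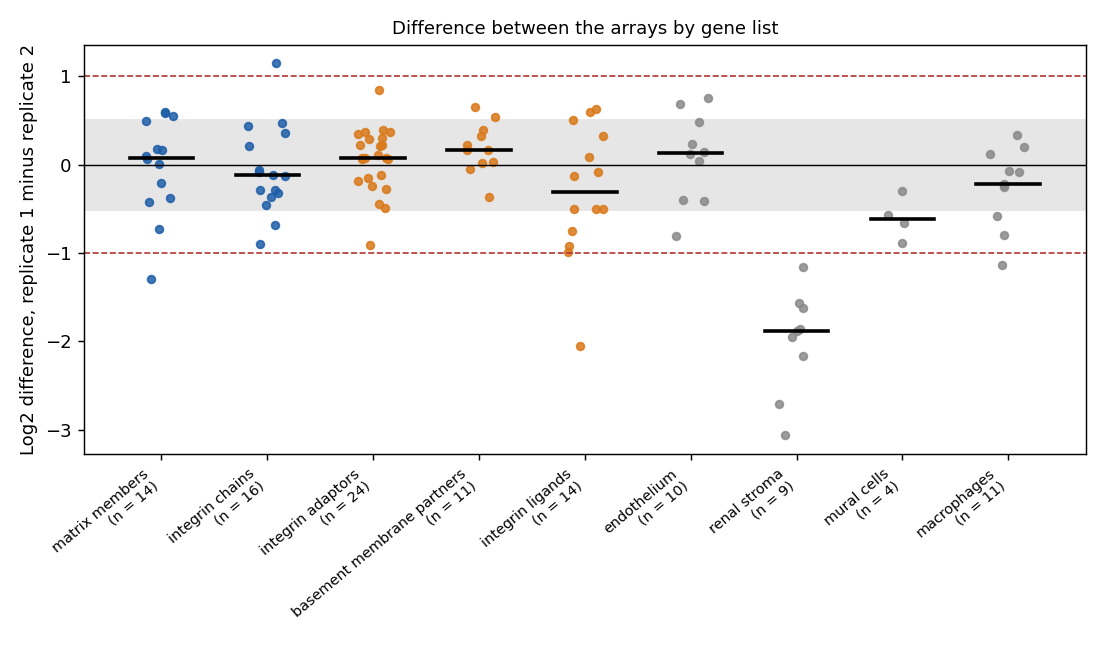
Log2 difference, replicate 1 minus replicate 2 (y axis), of each gene above background in the matrix and integrin groups (blue), the adaptor, partner and ligand lists (orange) and marker lists of endothelium and other cells (grey), with medians as black bars, 1 SD of all genes shaded and 2-fold dashed. The median of renal stroma lies at -1.88, and those of matrix genes and integrin chains at 0.079 and -0.12.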

How the data were processed

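RNA from 2 pools of Tie2-GFP cells was measured on an Affymetrix mouse 3' expression array with 45101 probe sets. The authors deposited 1 intensity value per probe set on a linear scale, made with GCOS per the labels (version not given in the sources used here). The mean without the lowest and highest 2% of values was 1500.01 on each array, so the deposited values had been scaled to a shared mean. The study's methods describe another array type and were not taken as those of these arrays. No genome build is named for the probe annotation in those sources.

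Genes were named from 34945 probe sets with 1 gene in the platform annotation, control probe sets being left out, and all 40 gene identifiers were found in RefSeq with unchanged symbols. Each gene took the values of whichever of its probe sets had the highest log2 intensity averaged over the arrays. The background limit was the 95th percentile, on each array, of 86 probe sets for 77 receptors of smell, pheromones and taste, known mainly from sensory tissue. Differences were log2 of replicate 1 minus replicate 2 less an offset of -0.03, which made the medians of probe sets above background equal, and over 2-fold was called. The number of arrays limits the precision. Roles, pairs, trimers and lists come from textbook knowledge and, like the genes, were chosen with earlier results of these data known. Every one of the 40 genes was named with its values. Of the lists, the first 3 or 4 measured genes, those not above background on both arrays and, for lists of partner genes, those over 2-fold were named, and others by choice after their values were seen. Alternatives were other limits (the 99th percentile, 100, 2 times the limit), other choices of probe set, quantile normalization, no centring, raising low intensities to the limit, and leaving out an array. The calculation was tested on simulated data. Python 3.11.15, numpy 2.4.6 and pandas 2.3.3 were used. Promoter sequences are from RefSeq (GRCm38.p6).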

Additional observations from a re-analysis of the deposited data

How the results depend on the processing

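The count of 30 genes above background ran from 28 to 34 under the other limits, probe set choices and quantile normalization, and was 31 and 32 with either array alone. Pairs with both chains above background ran from 11 to 17 and trimers from 8 to 13. The number of genes over 2-fold, 2 in the setting used, was 1 with the limit at the 99th percentile, 1 at 2 times the limit and 1 with the median over each gene's probe sets, where fewer genes or other probe sets entered the count. It was 3 with a limit of 100 or with low intensities raised to the limit, Itgb3 being added. The median difference ran from -0.12 to 0.014. Single differences moved by more than the SD over all genes only with the median over probe sets, for Hspg2 (0.96), Itgav (0.64) and Nid1 (0.66). No paired analysis was possible because there is 1 group. Levels near the limit have larger spread, and 2 arrays give no replicate check of any difference.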
